A study of Mus musculus with 18 samples.

Results

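The collagenase and stromelysin genes of mouse chromosome 9 form a compact group that includes Mmp13, and their transcripts were compared in NMuMG cells treated with halofuginone (HF) or with MAZ1310, an analog of HF used as the inactive control. The group was taken by gene symbol, and 9 genes were measured by 10 probes, of 16675 genes and 21973 probes in the table. These were Mmp13, Mmp3, Mmp10, Mmp12, Mmp8, Mmp7, Mmp20, Mmp1a and Mmp1b, with 2 probes for Mmp12 and 1 for each of the others. NMuMG is an established line from normal mammary gland of the mouse with an epithelial morphology. Both treatments began shortly after fresh plating in complete medium containing serum and insulin, with each compound at 10 nM in acidified DMSO for 8 hr. There were 3 cultures per treatment, each hybridized to 3 technical arrays, and no untreated or vehicle-only culture was analysed here. The deposited values are 1-color fluorescence intensities, given here as log2, with the technical arrays averaged so that n = 3 cultures.

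Matrix metalloproteinases are zinc enzymes that are made as inactive precursors, secreted or held at the cell surface, and activated when a propeptide is removed. Collagenases, among them Mmp13 and Mmp8, can open the triple helix of fibrillar collagen. The stromelysins Mmp3 and Mmp10 have a broad range of matrix substrates and can also activate other members of the family. Mmp12 is the macrophage elastase, Mmp7 (matrilysin) is a small epithelial enzyme without the hemopexin domain, and Mmp20 is the enamel protease of developing teeth. Many genes of the cluster are known to respond to growth factors, cytokines and stress through AP-1, a dimer of Fos and Jun proteins that binds a short element close to the start site.

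The promoters of Mmp13, Mmp10 and Mmp3 are shown because these genes had the highest fold changes of the cluster. Those of Mmp7 and Mmp8 stand for members with and without the AP-1 letters whose transcripts could not be told from background. Each stretch is the 110 bases before the annotated start, on the plus strand of GRCm38.p6 as given by RefSeq, 5′ to 3′. Capitals mark matches to the AP-1 motif TGANTCA and to the TATA motif TATAAA.
Mmp13: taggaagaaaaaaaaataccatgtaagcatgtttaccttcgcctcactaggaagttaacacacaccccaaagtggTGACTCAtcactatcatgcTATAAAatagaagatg
Mmp10: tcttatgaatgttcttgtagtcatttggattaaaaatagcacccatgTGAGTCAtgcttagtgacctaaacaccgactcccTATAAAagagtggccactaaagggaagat
Mmp3: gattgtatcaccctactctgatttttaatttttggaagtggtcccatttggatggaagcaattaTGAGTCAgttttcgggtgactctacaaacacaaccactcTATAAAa
Mmp7: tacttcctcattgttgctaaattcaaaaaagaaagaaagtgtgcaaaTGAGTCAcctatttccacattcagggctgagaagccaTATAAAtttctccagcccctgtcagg
Mmp8: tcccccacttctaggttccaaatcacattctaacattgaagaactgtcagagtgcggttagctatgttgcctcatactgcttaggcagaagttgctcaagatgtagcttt
The stretches lie at chr9:7272404-7272513 for Mmp13, chr9:7502232-7502341 for Mmp10, chr9:7445712-7445821 for Mmp3, chr9:7691980-7692089 for Mmp7 and chr9:7558319-7558428 for Mmp8.

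The AP-1 letters occurred close to the start of nearly every member. Among these are Mmp12, Mmp7, Mmp20, Mmp1a and Mmp1b, whose transcripts could not be told from background, as described below. Whether those genes respond could therefore not be read here. Within 250 bases before the start, on either strand, TGANTCA was found in 8 of 9 genes, against 7.82% of 27025 genes with a RefSeq promoter. Its first base lay 35 bases before the start of Mmp13, 46 in Mmp3, 63 in Mmp10 and Mmp7, 73 in Mmp1a, 93 in Mmp1b, 95 in Mmp20 and 44 at the second annotated start of Mmp12. Mmp8 had no match in its window. Mmp20 carried the form TGAATCA. The other matches read TGAGTCA, in Mmp13 on the opposite strand, so that its printed letters are TGACTCA. The TATA letters were present in 7 of 9 genes, against 14.3% of all genes. The Ets letters AGGAAG were found in 6 of 9 genes against 32.3%, and the Runx letters TGTGGT in 3 of 9 against 15.9%. Mmp13 held both, with Ets matches 62 and 109 bases and a Runx match 118 bases before its start. The C/EBP-ATF letters TGATGNAA were found only in Mmp10, 133 bases before the start, against 3.91% of all genes, and the cyclic AMP element TGACGTCA in 0 of 9 against 1.77%. No 2 of these motifs overlapped in a member's window. A match is a description of the letters and not a bound site.

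**Figure D1:**
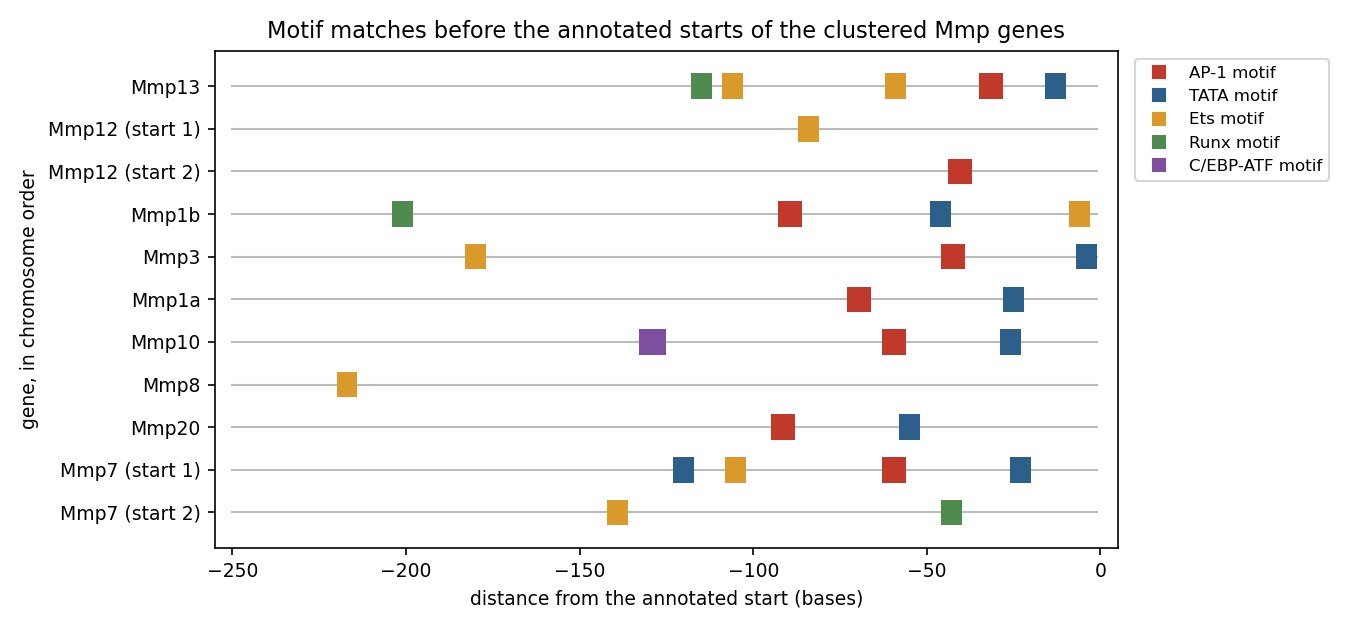
Motif matches in the 250 bases before each annotated start of the 9 genes (x axis, distance from the start in bases), with 1 line per start in chromosome order (y axis) and boxes drawn to the length of each motif. An AP-1 match lies before at least 1 start of 8 of the 9 genes, Mmp8 being the exception.

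Mmp13 was the only member past the test. Collagenase 3, its product, cleaves type II as well as type I collagen and is known from cartilage, bone and the stroma of tumors. Its log2 intensity was 12.80, 13.07 and 13.36 in the 3 MAZ1310 cultures and 14.56, 14.70 and 14.69 in the 3 HF cultures. Every HF culture stood above every MAZ1310 culture, the lowest HF culture being 1.20 above the highest MAZ1310 culture. The mean was 14.65 ± 0.078 (SD, n = 3) under HF and 13.08 ± 0.28 (SD, n = 3) under MAZ1310, a log2 fold change of 1.57 with SE 0.17 and a 95% interval of 1.18 to 1.97, or 2.98-fold (limma, adjusted p = 0.00873). By fold change Mmp13 was 49th of the 242 genes that rose. The call was lost without culture 2 of either treatment, while the estimate stayed close. Without HF culture 2 the log2 fold change was 1.55 with a limma adjusted p of 0.0618. Without MAZ1310 culture 2 it was 1.57 with an adjusted p of 0.0546. Fewer genes passed over the whole table in those fits, 33 higher and 15 lower in the first and 38 and 26 in the second. The labels call the cultures biological replicates and say nothing further of how they were separated, so the p-values measure the spread between these cultures. In bulk RNA a change in the number of cells that make a transcript and a change in the amount per cell cannot be told apart.

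The 18 arrays gave the same picture for Mmp13 with a wide technical scatter. The 9 HF arrays ran from 13.69 through a median of 15.03 to 15.35, and the 9 MAZ1310 arrays from 12.43 through 13.09 to 13.43, so that no HF array reached down to a MAZ1310 array. The SD between technical arrays of a culture was 0.508, 0.658 and 0.88 in the HF cultures and 0.335, 0.262 and 0.073 in the MAZ1310 cultures, and pooled it was 0.525, against a median of 0.26 over all genes. The Mmp13 probe reached the highest possible intensity on 0 of 18 arrays. Fitting the 18 arrays with the culture as a random block gave a log2 fold change of 1.57 (limma, adjusted p = 0.00278). Its SE was 0.31 there, beside 0.17 in the fit of culture means, so the precision of the Mmp13 change depends on the model.

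**Figure D2:**
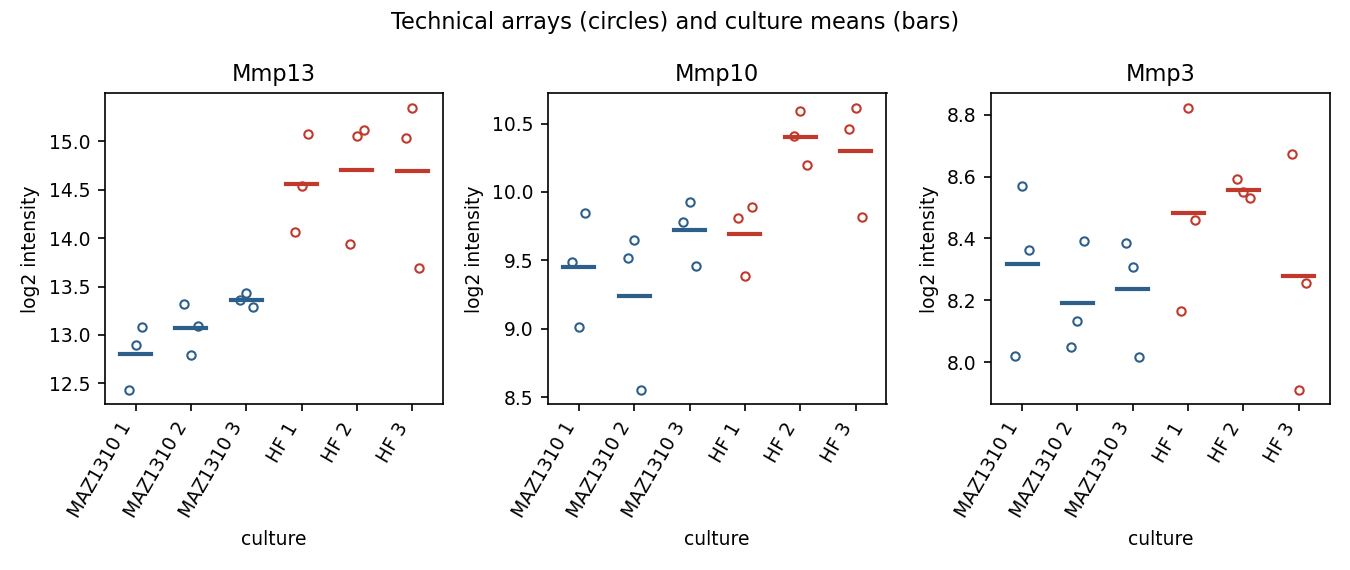
Log2 intensity (y axis) of Mmp13, Mmp10 and Mmp3 on each technical array, grouped by culture (x axis), with the culture mean as a bar. Mmp13 lies between 12.43 and 13.43 on the MAZ1310 arrays and between 13.69 and 15.35 on the HF arrays, while the arrays of Mmp10 and Mmp3 overlap between treatments.

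Among the 9 genes, 1 rose and 0 fell, where 3.02% of all genes tested passed the same limma threshold (1.45% higher and 1.57% lower). The groups did not overlap for 1 of 9 genes, Mmp13, against 21.0% of all genes in either direction. The median log2 fold change over the members was 0.06, beside -0.002 over all genes, and the 8 genes other than Mmp13 ran from -0.23 to 0.66. Probes differ in brightness, so levels of different members were not ranked against each other. As a guide to dim probes, the 772 receptor genes of olfactory and vomeronasal neurons on the array had a median log2 intensity of 6.42 and a 95th percentile of 8.74, and none of them was called. Of the 7015 genes above that percentile in at least 1 treatment, 6.32% passed. Mmp13 and Mmp10 lay above it and the other 7 members lay below it in both treatments, and 6 of these 7 were also below the 75th percentile of 7.15. For those 6 genes, Mmp12, Mmp8, Mmp7, Mmp20, Mmp1a and Mmp1b, the intensities fell in the range of these receptor genes, so a transcript could not be told from background.

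**Figure D3:**
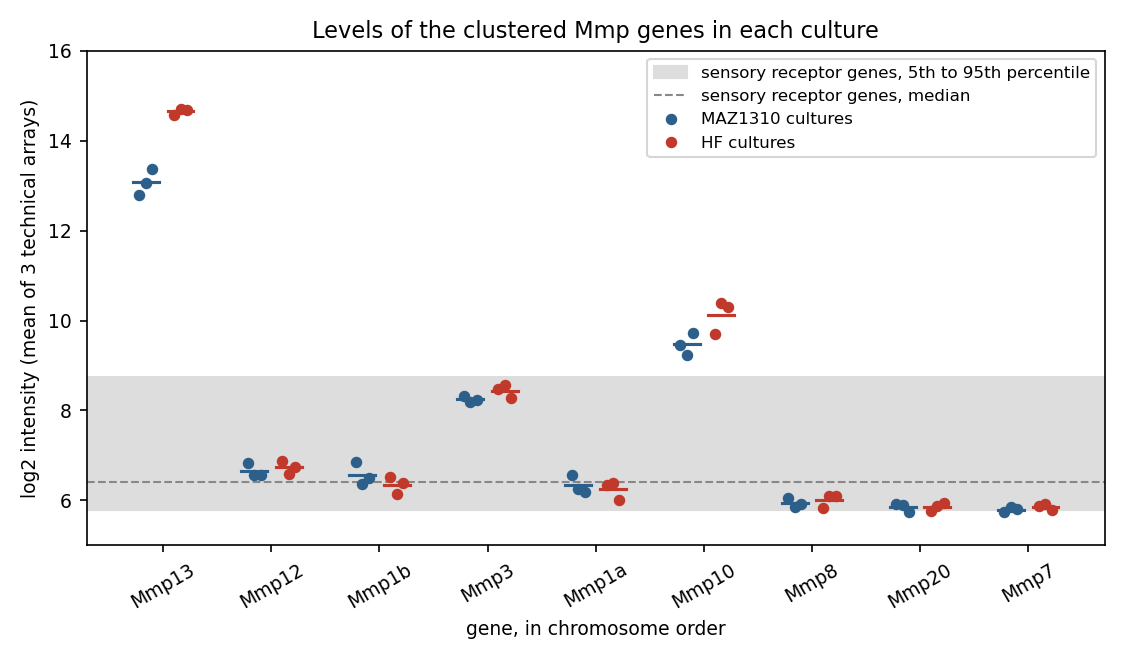
Log2 intensity (y axis) of each of the 9 genes (x axis) in the 3 MAZ1310 and the 3 HF cultures, each point being 1 culture and each bar the group mean, with the range of the sensory receptor genes marked for reference. The groups separate for Mmp13, and 7 of the 9 genes lie below the 95th percentile of the receptors in both treatments.

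Mmp10, stromelysin 2, had the next highest change but did not pass the test. Its log2 intensity was 9.45, 9.24 and 9.72 under MAZ1310 and 9.69, 10.40 and 10.30 under HF. HF culture 1 lay within the MAZ1310 range, and the other HF cultures lay above it. The means were 9.47 ± 0.24 and 10.13 ± 0.38 (SD, n = 3 each), a log2 fold change of 0.66 with SE 0.23 and a 95% interval, unadjusted, of 0.13 to 1.19 (limma, adjusted p = 0.194). Leaving out 1 culture at a time gave 0.53 to 0.88, and the threshold was not reached in any of the 16 alternatives, where the adjusted p ran from 0.0772 to 0.451.

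Mmp3, stromelysin 1, is an activator of pro-collagenases and lies between Mmp1b and Mmp1a on the chromosome. Its log2 intensity was 8.32, 8.19 and 8.24 under MAZ1310 and 8.48, 8.56 and 8.28 under HF, with overlap between the groups. The log2 fold change of 0.19 had an SE of 0.13 and an interval of -0.12 to 0.50 (limma, adjusted p = 0.605).

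None of Mmp8, Mmp1a and Mmp1b changed past the test. Mmp8, the collagenase stored in neutrophil granules, gave 6.05, 5.85 and 5.92 under MAZ1310 and 5.83, 6.09 and 6.09 under HF, a log2 fold change of 0.06 (limma, adjusted p = 0.917). Mmp1a and Mmp1b are the rodent counterparts of human interstitial collagenase and are near copies of each other. Mmp1a gave 6.58, 6.26 and 6.19 under MAZ1310 and 6.35, 6.38 and 6.01 under HF, a log2 fold change of -0.09 (adjusted p = 0.899). Mmp1b gave 6.85, 6.36 and 6.50 under MAZ1310 and 6.51, 6.13 and 6.39 under HF, a log2 fold change of -0.23 with an interval of -0.65 to 0.19 (adjusted p = 0.674). All 3 genes overlapped between treatments, and whether the Mmp1a and Mmp1b probes also bind each other's transcript was not tested.

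Matrilysin and the enamel protease stayed within a narrow band. Mmp7 gave 5.73, 5.84 and 5.81 under MAZ1310 and 5.87, 5.91 and 5.79 under HF, a log2 fold change of 0.06 (limma, adjusted p = 0.908). Mmp20 gave 5.91, 5.90 and 5.74 under MAZ1310 and 5.76, 5.87 and 5.94 under HF, with a log2 fold change near zero (adjusted p = 0.998).

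The 2 probes of Mmp12 disagreed in direction. Probe mMC013201 read 7.52, 7.19 and 6.90 under MAZ1310 and 7.33, 6.84 and 6.50 under HF, a log2 fold change of -0.31 with an interval of -0.91 to 0.29 (limma over probes, adjusted p = 0.706). Probe mMR030892 read 6.13, 5.94 and 6.25 under MAZ1310 and 6.41, 6.33 and 6.98 under HF, a log2 fold change of 0.46 with an interval of -0.02 to 0.95 (adjusted p = 0.346). The groups overlapped for the first probe, and for the second the lowest HF culture was 0.08 above the highest MAZ1310 culture, where 20.2% of all probes did not overlap. Neither passed a test that 2.23% of probes passed. The median over both probes gave a log2 fold change of 0.08 (adjusted p = 0.903), and the sign depends on the probe taken.

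The rise of Mmp13 was set against the change of each other member within the same cultures. The log2 fold change of Mmp13 exceeded that of Mmp10 by 0.91 (SE 0.22) and that of Mmp3 by 1.38 (SE 0.21). Mmp3 is itself below the 95th percentile of the receptors, and no excess is given over the other 6 genes, since a difference from a probe at background repeats the change of Mmp13 alone. For Mmp10 and for Mmp3 the difference from Mmp13 was larger in every HF culture than in every MAZ1310 culture, which gave p = 0.1 by exact permutation of the cultures (two-sided) and 0.1 after Benjamini-Hochberg adjustment over the 8 pairs computed. This is the smallest p that 3 cultures against 3 allow, so no pair could pass a threshold of 0.05.

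Mmp13 lies at the edge of the cluster, next to Dcun1d5, and none of the measured genes on either side was called. In RefSeq order the cluster runs Mmp13, Mmp12, Mmp1b, Mmp3, Mmp1a, Mmp10, Mmp8, Mmp27, Mmp20 and Mmp7, and Mmp27 was not analysed here. Of the 8 protein-coding genes on each side, 15 of 16 were measured, with a median log2 fold change of 0.11. Dcun1d5, a neddylation factor and the nearest neighbor of Mmp13, had a log2 fold change of 0.31 (limma, adjusted p = 0.752). Tmem123, next to Mmp7, had -0.12. Casp1, the inflammatory caspase, gave 8.03, 8.02 and 7.77 under MAZ1310 and 7.42, 7.12 and 6.85 under HF, a log2 fold change of -0.81 that did not pass (adjusted p = 0.063). The inhibitor of apoptosis gene Birc3 was at the other end of the range with 0.44 (adjusted p = 0.507). On the side of Mmp13, Dync2h1 had 0.11, Ddi1 0.13, Pdgfd 0.06, Casp12 0.18, Casp4 0.21 and Gria4 0.01. On the side of Mmp7, Birc2 had 0.28, Yap1 0.25, Cfap300 0.11, Trpc6 -0.05 and Pgr -0.18, and Cep126 was not analysed here.

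**Figure D4:**
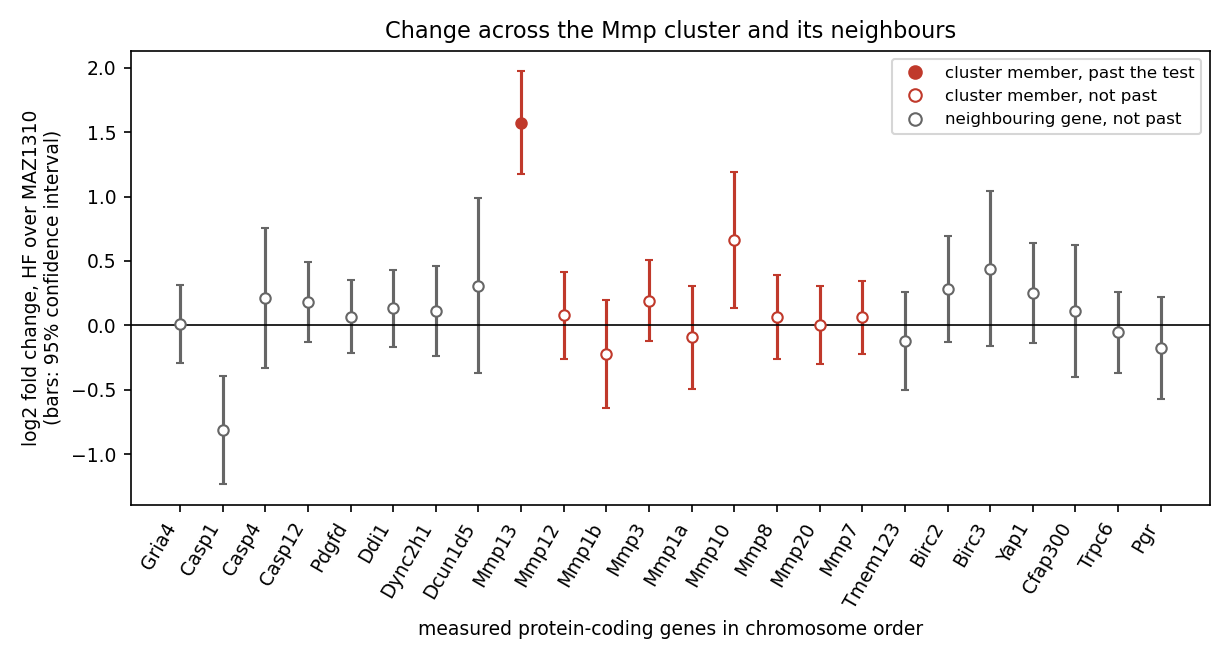
Log2 fold change of HF over MAZ1310 with its 95% interval (y axis) for the genes of the cluster and 8 protein-coding neighbors on each side, in chromosome order (x axis). Mmp13 is at 1.57 and the 15 measured neighbors lie between -0.81 and 0.44.

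The genes whose profile over the 6 cultures was closest to that of Mmp13 lay outside the cluster. Likeness was taken as the root mean square difference of log2 values centred on the MAZ1310 mean, which follows the size of the change as well as its pattern. The closest was Ribc1, with a difference of 0.092 and a log2 fold change of 1.54. It was followed by Sema3e, a secreted semaphorin, at 0.112 (log2 fold change 1.42), and Rab27b, a GTPase of regulated secretion, at 0.157 (log2 fold change 1.52). Next were the secreted serine protease Htra1 at 0.158 (log2 fold change 1.47) and Mgea5, the O-GlcNAcase gene now named Oga, at 0.159 (log2 fold change 1.42). Among the members, Mmp10 ranked 648th of 16674 genes with a difference of 0.683, and Mmp3 ranked 3254th. By this measure a member with a small change could not rank close to Mmp13, so the ranks of members largely repeat their fold changes. These are descriptions over 6 cultures.

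No other matrix metalloproteinase or inhibitor passed the test. Of 14 other Mmp genes, 13 were measured, 0 rose and 0 fell, with a median log2 fold change of 0.12 and a range from -0.34 (Mmp21) to 0.33 (Mmp17). Of these, 2 were brighter than the 95th percentile of the receptors. Of 7 inhibitor genes, 6 were measured and 0 were called, and 2 of the 6 were brighter than that percentile. Timp1, which inhibits most secreted metalloproteinases, had 12.80 ± 0.016 under MAZ1310 and 13.03 ± 0.217 (SD, n = 3) under HF, a log2 fold change of 0.23 (limma, adjusted p = 0.561), and Timp4 had -0.29 (adjusted p = 0.785).

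Of 16 measured genes listed for the activation of pro-metalloproteinases, with the receptor Plaur among them, 1 fell and 0 rose. Over all genes, 1.57% fell and 1.45% rose. Plat, the tissue-type plasminogen activator, gave 11.52, 10.95 and 11.29 under MAZ1310 and 9.88, 10.27 and 9.89 under HF. Every HF culture was below every MAZ1310 culture, and the log2 fold change was -1.24 with SE 0.19 (limma, adjusted p = 0.026). The call was lost without any of the 3 HF cultures or of MAZ1310 cultures 2 and 3, where the adjusted p reached 0.0905. Plaur, the receptor of the urokinase-type activator, had a log2 fold change of 0.74 (adjusted p = 0.089) and the lysosomal protease Ctsl had 0.64 (adjusted p = 0.249), neither past the test.

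Of listed transcription factors of the AP-1, Runx, Ets, C/EBP and ATF families, 4 of 22 measured genes rose and 0 fell, beside 1.45% of all genes that rose. The list was drawn up with earlier results of these data known, so this share is no independent result. Binding of these factors at Mmp13 was not tested. The 4 were Ddit3, Atf3, Ets1 and Atf4. Ddit3, Atf3 and Atf4 are stress response factors that the study chose on these same samples, so their direction on these arrays is no independent evidence. The study also reported each of them higher under HF by quantitative RT-PCR on separate samples. On the arrays the log2 fold changes of Ddit3, Atf3 and Atf4 were 3.55, 1.28 and 1.04. Ets1 is an Ets factor that binds next to AP-1 and Runx elements. It gave 7.22, 7.77 and 7.88 under MAZ1310 and 8.72, 8.54 and 8.91 under HF. Its log2 fold change was 1.11 with SE 0.21 (limma, adjusted p = 0.041). The Ets1 means, 7.62 under MAZ1310 and 8.72 under HF, both lay below the 95th percentile of the receptors, 8.74. The call of Ets1 was lost when any of the 6 cultures was left out, with an adjusted p of up to 0.118, with the mean over its probes (adjusted p = 0.0578) and with the median of the technical arrays (0.0595). The call of Atf3 was lost without HF culture 1 or 3 or MAZ1310 culture 2 or 3, with an adjusted p of up to 0.092, and that of Atf4 without any culture but MAZ1310 culture 1, with up to 0.130, and with the median of the technical arrays (0.105). Ddit3 passed under all 16 alternatives.

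The 7 AP-1 subunits Fos, Fosb, Fosl1, Fosl2, Jun, Junb and Jund, brought together after their values were seen, held 0 calls in either direction. Their median log2 fold change was 0.11, from -0.13 for Jund to 0.64 for Fos, and their lowest limma adjusted p was 0.239. The change was positive for 6 of the 7, beside 8272 of all 16675 genes. For 2, Fos and Fosl1, every HF culture stood above every MAZ1310 culture, and the groups overlapped for the other subunits. Over all genes, 21.0% did not overlap in either direction. Fosl1 had a log2 fold change of 0.56 (adjusted p = 0.243). Runx1 had 0.60 (adjusted p = 0.158) and Runx2, the bone factor known to drive Mmp13, had 0.03. Fos, Fosb, Fosl2, Runx1 and Runx2 lay below the 95th percentile of the receptors, 8.74, under both treatments. Runx2, at 6.40 under MAZ1310 and 6.44 under HF, was near the receptor median of 6.42, so its transcript could not be told from background.

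Of inducers of metalloproteinases and their receptors, 1 of 24 measured genes rose, beside 1.45% of all genes. This was Ereg, an EGF receptor ligand, with a log2 fold change of 2.07 (limma, adjusted p = 0.00574). Ereg too is among the genes the study chose on these samples, so its direction is no independent evidence. The interleukin 1 receptor gene Il1r1 had 0.95 (adjusted p = 0.177) and Hbegf, another EGF receptor ligand, had 0.58 (adjusted p = 0.062). Of 22 substrates of these enzymes, all measured, 0 were called and the median log2 fold change was -0.05. The basement membrane gene Nid1 had -0.39 and Col1a2 had -0.36. Of the 22, 10 were brighter than the 95th percentile of the receptors, and Nid1 and Col1a2 lay below it under both treatments.

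**Figure D5:**
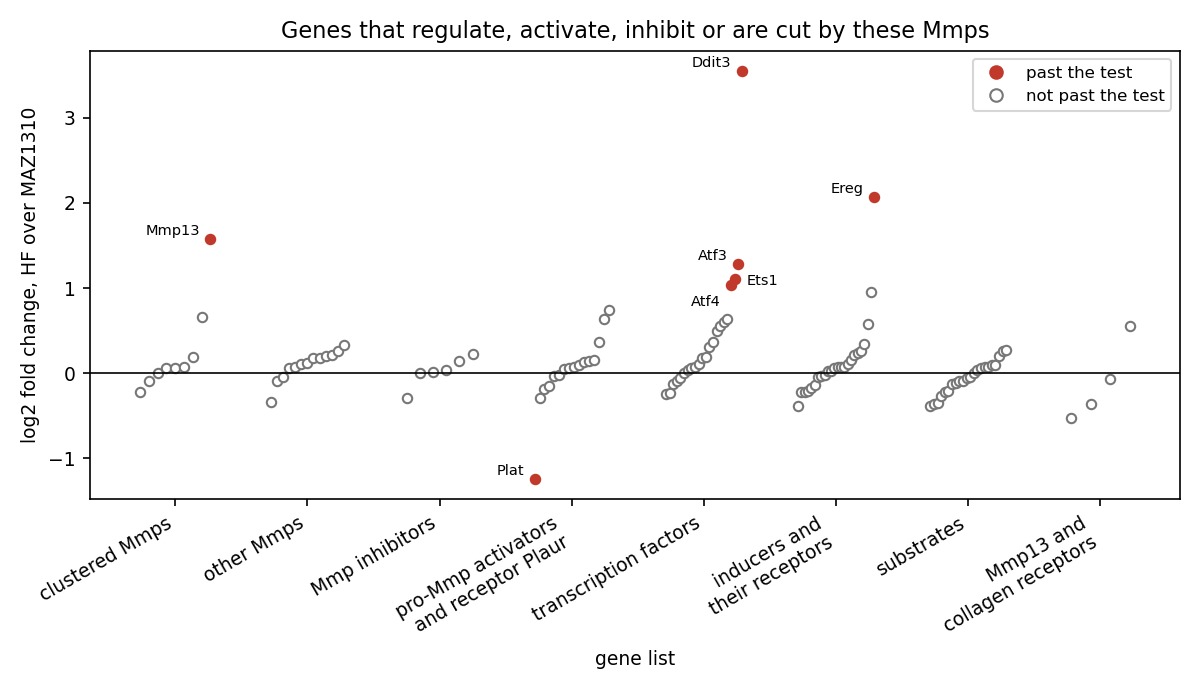
Log2 fold change of HF over MAZ1310 (y axis) of each measured gene in 8 lists around these enzymes (x axis), with filled points for genes past the limma threshold. Points past it are Mmp13, Plat, Ddit3, Atf3, Ets1, Atf4 and Ereg.

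Markers of epithelium and of the cell types known for single members were compared as well. Of 13 epithelial genes 7 were above the 95th percentile of the receptors and 0 were called, with Krt19 at a log2 fold change of 0.68 (limma, adjusted p = 0.297) and Rbm35a, an older symbol of Esrp1, at 0.36 (adjusted p = 0.182). Krt8 at 15.94 and Krt18 at 15.93 under MAZ1310 were bright but at or near the scanner maximum, so no change could be read from them. All 8 fibroblast genes lay below that percentile, with the highest, Col1a2, at 6.95 under MAZ1310, and 0 were called. Thy1 had a log2 fold change of -0.38 (adjusted p = 0.722). Of 9 macrophage genes 2 were above that percentile and 0 were called. Mrc1 was at 11.63 under MAZ1310 and 12.04 under HF, and Itgam at 9.01 and 9.10, while the leukocyte gene Ptprc was at 5.99 and 5.88. Cd68 had a log2 fold change of -0.45 (adjusted p = 0.207). Of 6 measured neutrophil genes S100a8 fell, from 7.66 to 6.84 (limma, adjusted p = 0.043), a call lost when any of the 6 cultures was left out (adjusted p of up to 0.140), with the brightest probe (0.0505) and with the median of the technical arrays (0.0632). S100a8 lay below the 95th percentile of the receptors under both treatments, and its part in the results was not tested. The neutrophil genes S100a9 and Camp had log2 fold changes of -0.27 and -0.19, neither past the test. Ltf and Mpo went the other way with 0.13 and 0.07, and Ngp had -0.08, also not past it. Of the 6 neutrophil genes 1 was above that percentile, Ltf, at 9.68 under MAZ1310 and 9.81 under HF. Of 7 cartilage and bone genes 0 were called and 2 were above the percentile, Sox9 at 10.89 and Ibsp at 9.41 under MAZ1310, while Col2a1 and Sp7 had log2 fold changes of -0.34 and -0.21. Of 4 enamel genes 0 were called and 0 were above it, with Enam at 0.27 and Ambn at 0.11.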

How the data were processed

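The authors submitted RNA of 6 NMuMG cultures to Phalanx Biotech, which ran 18 1-color mouse arrays. The deposited values are linear intensities that the authors had quantile-normalized after dropping probes negative or missing on an array; the background correction is not given in the sources used here. Intensities ran from 36.4 to 65535, with 0 to 48 probes per array at the maximum, and detection calls were not used here. Each culture is the mean log2 intensity of its technical arrays. Symbols came from the platform annotation (21020 probes with 1 symbol, 953 with none), and a gene is the median over its probes. HF was compared with MAZ1310 over all 16675 genes, and separately over all 21973 probes, by moderated two-sided tests of a treatment term (limma 3.58.1, R 4.3.3, default eBayes), and a p adjusted by Benjamini-Hochberg below 0.05 was called. The median SE of a log2 fold change was 0.178, and the number of cultures limits precision. The script was checked on simulated data. Motifs were searched in RefSeq promoters (GRCm38.p6), where all 9 members matched by symbol.

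Named genes were all members, the 8 protein-coding neighbors on each side, the 5 genes most like Mmp13 and, from each list, those past the threshold plus the 2 uncalled genes of largest absolute change. The AP-1 subunits, Runx2, Ddr1, Ptprc, Itgam, Ltf, Mpo, Ngp, Sox9, Ibsp, Krt8 and Krt18 were named beside that rule. The members and lists were chosen with earlier results of these data known. Alternatives changed the scaling, the dim filter, the summaries over probes and arrays, the replicate term, the adjustment and the cultures included.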

Additional observations from a re-analysis of the deposited data

How the results depend on the processing

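Mmp13 kept its direction in 16 alternatives, with log2 fold changes of 1.44 to 1.76, and its call in 14; with the cultures left out in turn the range was 1.44 to 1.72. Of 137 values of the members under alternatives, 127 kept direction and side of the threshold. The signs that turned belong to small changes. Mmp12 was -0.31 with the brightest probe, and the median of the technical arrays gave -0.028 for Mmp7 and -0.022 for Mmp20. With 1 culture left out, Mmp20 ran from -0.053 to 0.052, below zero without HF culture 2 (-0.0047), HF culture 3 (-0.041) or MAZ1310 culture 3, and Mmp1a from -0.171 to 0.024, above zero without HF culture 3 or MAZ1310 culture 1 (0.022). The cause was not tested. The filter on dim features left out 7 of 9 members.

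Counts of called genes moved more. With 242 higher and 262 lower in the reported fit, fitting the 18 arrays with the culture as a random block gave 615 and 513, leaving out dim genes 380 and 356, and the median of technical arrays 133 and 189. Leaving out 1 culture gave 33 to 135 higher and 15 to 204 lower. Over probes, with 252 and 239 reported, these settings gave 730 and 545, 460 and 386, 135 and 185, and 28 to 126 and 8 to 165. Same-numbered cultures deviated together with correlations of 0.672, 0.0792 and 0.690, and each of the 3 HF cultures correlated best with its own number. The labels do not say whether same-numbered cultures were handled together, and the reported fit held no replicate term. A fit with the replicate block gave 891 and 901 genes and 1057 and 974 probes, and 1.57 for Mmp13. It changed no call of a member. Dim members limit what could be detected, since 7 of 9 genes lay below the 95th percentile of the sensory receptors.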

Other observations

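Receptors that clear or bind these enzymes or their collagen substrates held 0 calls of 4 measured genes. Lrp1, the endocytic receptor that takes up Mmp13, had a log2 fold change of -0.52 (limma, adjusted p = 0.167). The cultures of the treatments did not overlap for 2 of the 4, Lrp1 and Ddr1. Over all genes, 21.0% did not overlap in either direction. The collagen receptor kinases differed in sign, with 0.56 for Ddr2 (adjusted p = 0.262) and -0.36 for Ddr1 (adjusted p = 0.302), neither past the test.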
